A study of Arabidopsis thaliana with 34 samples.

Results

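The genes that encode the protein components of the cytosolic ribosome were described across the mRNA libraries and the chromatin profiles of an Arabidopsis thaliana study on VRN2. Members were the nuclear genes, on chromosomes 1 to 5, whose description in the deposited rosette table names a 60S or a 40S ribosomal protein. The rule found 216 members among 21713 nuclear genes, with 45, 42, 61, 25 and 43 on chromosomes 1, 2, 3, 4 and 5. Of these, 202 were components of the cytosolic ribosome and fell into 76 protein families: 113 genes in 44 families of the large subunit and 89 genes in 32 families of the small subunit. The other 14 members were 7 genes of the mitochondrial ribosome, 3 L18a-like proteins, 1 homolog of mRNA turnover protein 4 (a ribosome assembly factor in yeast) and 3 genes with no reviewed protein name, so the name of cytosolic ribosomal protein genes holds for most members and not for these 14. The acidic stalk proteins P1 and P2 are described with other words in the table and are not members, while P0, to which they bind, is.

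Each cytosolic ribosome carries 1 copy of nearly every one of these proteins, bound to ribosomal RNA, and assembly needs all of them in matched amounts. Plants keep several active genes per protein, and loss of a single copy in Arabidopsis often gives pointed or narrow leaves, short roots or altered leaf polarity. Ribosomal protein mRNA is known to follow growth and the TOR kinase, which links nutrients and light to the making of ribosomes. VRN2 is a subunit of the Polycomb repressive complex 2, which deposits the repressive mark H3K27me3 on histone H3, and PRT6 is an E3 ubiquitin ligase that recognises the N-terminus of VRN2 and leads to its breakdown. PIF4 is a transcription factor that promotes growth and is held back by light.

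Whole seedlings gave 3 mRNA libraries each of wild-type Col-0, of the single mutants vrn2-5 and prt6-1, and of the double mutant vrn2-5prt6-1. Whole rosettes gave 2 libraries of pif4-2 and 2 of vrn2-5pif4-2, so both rosette groups carry the pif4-2 mutation and no wild-type rosette was analysed here. Chromatin came from whole seedlings: VRN2-YFP under the VRN2 promoter in vrn2-5, 3 immunoprecipitations with their inputs, and H3K27me3 in Col-0 and vrn2-5, 3 of each with inputs. The labels analysed give no age, light or temperature. They also do not say whether replicates were separate plantings, so the spread behind each p-value may be technical. In whole plants, fewer cells of a type and less RNA per cell cannot be told apart.

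Rosette libraries held 15912781 to 26322823 reads. Seedling libraries fell into 6 shallow ones of 1208836 to 1786079 reads and 6 deep ones of 9232780 to 27853214, and the median cytosolic member had 166 to 253 reads in the shallow and 1365 to 3535 in the deep ones. VRN2 mRNA was at 18.3 and 18.6 CPM (reads scaled to library size) for pif4-2 against 6.39 and 6.17 for vrn2-5pif4-2, and in seedlings at 116 to 163 normalized reads in Col-0 and prt6-1 against 36.7 to 76.8 in the libraries with vrn2-5, as labelled. PRT6 mRNA stood at 0, 46.0 and 57.7 normalized reads in Col-0 and at 10.7, 0 and 43.6 in vrn2-5. In prt6-1 it stood at 49.6, 142 and 93.8, and in vrn2-5prt6-1 at 122, 59.6 and 94.4. PRT6 reads were thus not lower with prt6-1 but mostly higher, with an overlap of Col-0 (57.7) and prt6-1 (49.6). PIF4 mRNA stood at 22.5 to 63.2 CPM in all 4 rosette libraries. A lower transcript, as for VRN2, therefore checks neither of these 2 labels here. Libraries that stood apart were vrn2-5pif4-2 replicate 2 among rosettes and, less so, vrn2-5prt6-1 replicate 1 and prt6-1 replicate 2 among seedlings. The members' median differences between genotypes are given with and without them. Rosette levels and their ranks are means over all 4 libraries and were not taken without vrn2-5pif4-2 replicate 2. That library stood above replicate 1 by 1.44-fold in the family L3 and up to 3.57-fold in L17, so levels depend on it unevenly.

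Levels of different genes were compared per length, as the authors' FPKM (reads scaled to transcript length and to library size) in rosettes. The ribosomal protein genes were among the most abundant mRNAs: the median cytosolic member stood at 125.7 FPKM against 5.40 over all genes, 123 of the 216 members lay above 100 FPKM, and 78 of the 500 genes of highest mean FPKM were members. The 10 highest were S8-1 (AT5G20290, 463 FPKM on average), L19-1 (AT1G02780, 455), L17-2 (AT1G67430, 403), L8-1 (AT2G18020, 403), Sa-1 (AT1G72370, 387), L10-1 (AT1G14320, 370), L18a-2 (AT2G34480, 369), L3-1 (AT1G43170, 355), S3a-1 (AT3G04840, 353) and P0-2 (AT3G09200, 350). These means include vrn2-5pif4-2 replicate 2, and the place of L17-2 rests on that library, in which it stood far above its other values. L3, L8 and L10 lie near the centre where peptide bonds form, L17 lines the tunnel through which the new protein leaves, and P0 is the base of the stalk that recruits translation factors. At the other end, 24 members lay under 10 FPKM. The 5 lowest with any read were 3 genes of the mitochondrial ribosome, AT2G07725 (L5, 0.0501 FPKM), AT2G28815 (L16-like, 0.302) and AT2G07715 (L2, 0.825), and a copy each of L18a-1 (AT1G29965, 0.234) and S23-1 (AT3G09680, 1.07).

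Summed over its copies, a family varied far less than a copy. Family totals ran from 129.7 FPKM for L39 to 609 for L21, a range of 4.70-fold, with a median of 384 and quartiles of 309 and 465, whereas the copies spanned 22.0-fold between their 10th and 90th percentiles. The large and the small subunit stood at the same height, with median family totals of 383 and 390 FPKM. The lowest families were L39, S28 (141.8), L29 (149.6) and S29 (176.3), and the highest were S3 (535), L17 (546), L19 (596) and L21. Reads of large-subunit members exceeded those of small-subunit members by 1.41 to 1.49 times in every one of the 16 libraries, seedlings and rosettes alike. Near-identical copies (among them the 4 genes of S2-1, the 3 of S18 and the 3 of L23) may share reads, so the split between them is uncertain while their family totals are less so. Whether reads were counted by strand is not given in these sources.

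**Figure D1:**
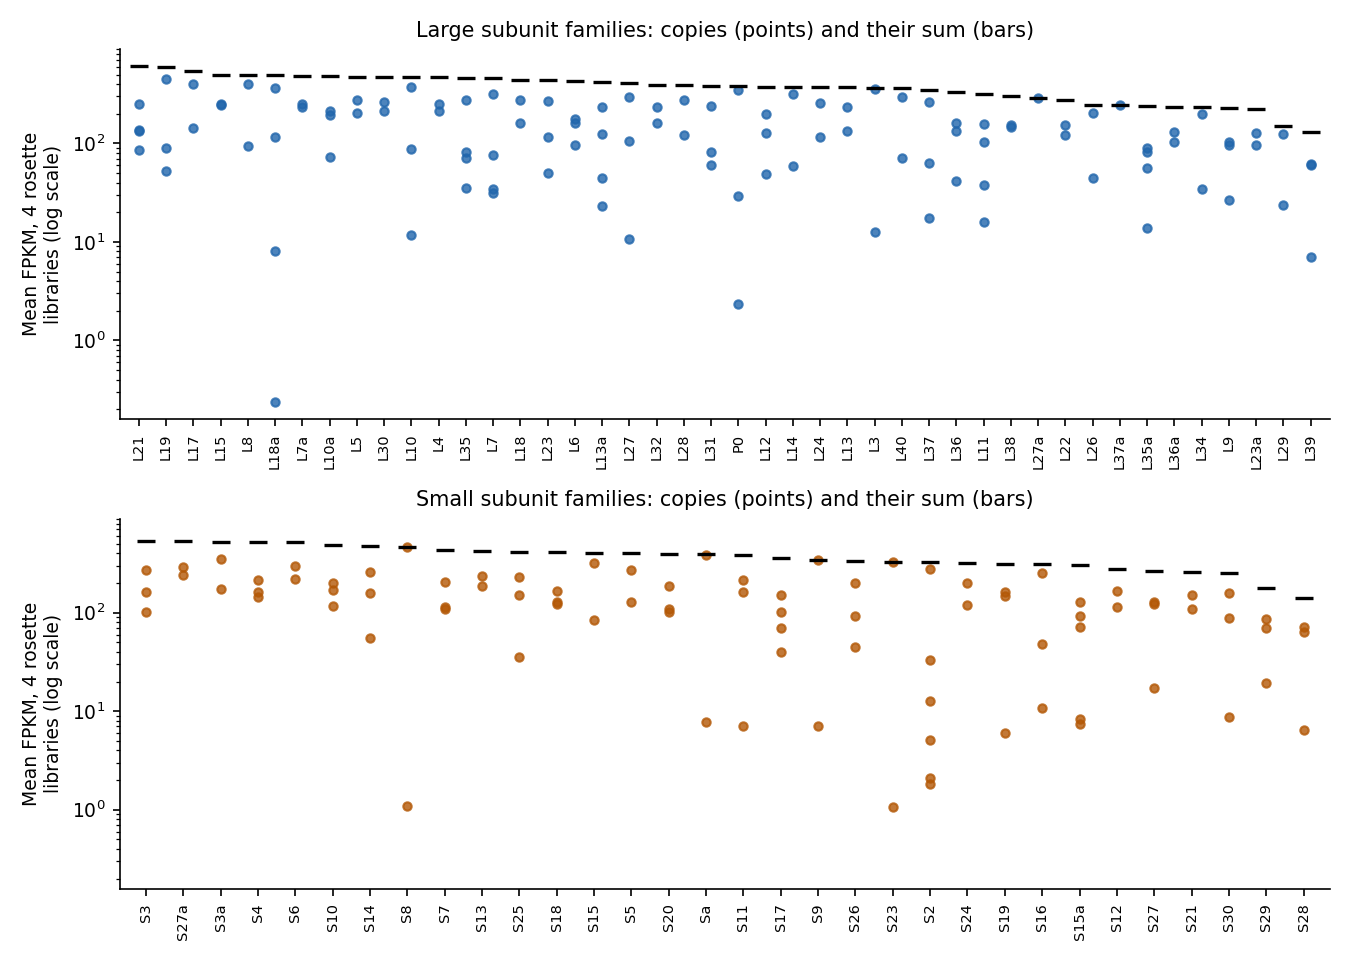
Mean FPKM over the 4 rosette libraries (vertical, log scale) of each cytosolic copy (points) and of the family total (bars), by family and in order of the total, large subunit above and small subunit below. Totals stay between 129.7 and 609 FPKM while single copies reach down to 0.234.

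Most families drew on several copies. Of 74 families with at least 2 copies, 18 had no copy with 50% of the family level in rosettes, and in 6 a single copy gave over 90%. These 6 were S23, where S23-2 gave 99.7%, S8 (S8-1, 99.7%), Sa (Sa-1, 98.1%), S9 (S9-1, 98.0%), L3 (L3-1, 96.7%) and P0 (P0-2, 91.4%). The widest spans of level within a family were 369 against 0.234 FPKM in L18a, 463 against 1.09 in S8, 330 against 1.07 in S23, 275 against 1.81 in S2 and 350 against 2.32 in P0. L27a and L37a had 1 gene each in the list; for L27a this was RPL27aC (AT1G70600, 291 FPKM), a gene known for leaf and ovule defects when mutated.

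The leading copy was the same in seedlings and rosettes in 62 of the 74 families, and the levels of copies ranked alike in both (Spearman 0.88 over 197 copies, given as a description, since both tables share gene lengths and base composition; 0.61 over 76 family totals). The share of a copy in its family is a ratio within a library, but the 2 tables were normalized and counted separately, and tissue, genotype and counting cannot be told apart. Of 186 copies compared, 70 had shares whose ranges did not overlap between the 12 seedling and the 4 rosette libraries. In the mean, 31 differed by more than 10 points. Shares within a family are tied, so in a family of 2 copies both are counted for the same difference. No such share over other genes was taken to set beside these counts. L18-2 (AT3G05590) gave 87.8% of L18 in seedlings (80.4 to 97.4) and 62.6% in rosettes (61.0 to 63.8). S3a-1 gave 44.1% of S3a in seedlings and 66.6% in rosettes, so that its partner S3a-2 led in seedlings only. L10-1, also known as SAC52 and found as a suppressor of the dwarf mutant acaulis, gave 60.6% of L10 in seedlings and 78.8% in rosettes, and L10-3 (AT1G66580) 37.3% and 18.9%. Among short small-subunit proteins, S28-2 (AT5G64140) stood at 31.8% and 49.0%, S21-1 (AT3G53890) at 41.3% and 58.4%, and 2 of the S30 genes differed in opposite directions, AT4G29390 with 24.8% in seedlings and 3.61% in rosettes and AT2G19750 with 15.6% and 35.9%. Shares also varied within a tissue: L10-1 ran from 77.5 to 79.7% over the 4 rosette libraries and from 55.9 to 67.0% over the 12 seedling libraries.

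**Figure D2:**
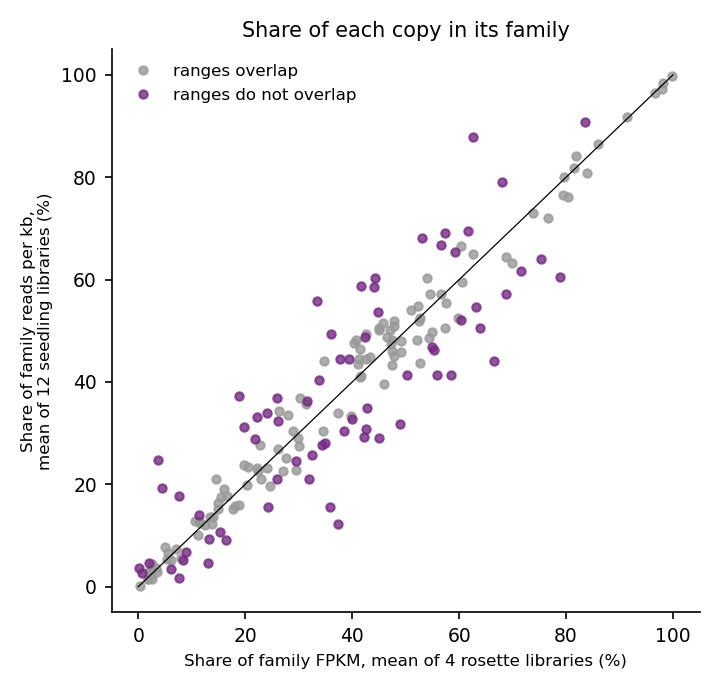
Share of each of 186 copies in the summed level of its family (percent), as the mean of 4 rosette libraries (horizontal) against the mean of 12 seedling libraries (vertical), with the line of equal shares. The 70 copies whose ranges do not overlap between tissues are coloured, and the farthest from the line is L18-2 at 62.6% and 87.8%.

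Of 20 copies with known roles in development, the level ran from 11.7 to 370 FPKM. RPL5A (PGY3, AT3G25520) and RPL5B (AT5G39740), which carry the 5S ribosomal RNA into the large subunit, stood at 274 and 204 FPKM, and RPL10aB (PGY1, AT2G27530) and RPL9C (PGY2, AT1G33140) at 194 and 102; mutants of these PGY genes disturb leaf polarity. RPL24B (STV1, AT3G53020), needed for translation of mRNAs with upstream reading frames such as those of auxin response factors, stood at 256 FPKM and gave 68.7% of L24. RPS18A (PFL1, AT1G22780) and RPS13B (PFL2, AT4G00100), named for pointed first leaves, stood at 123 and 185. RPS5A (AT3G11940), the copy active in dividing cells, stood at 273 FPKM against 128 for RPS5B (AT2G37270), and RPS6A (AT4G31700) and RPS6B (AT5G10360), targets of the S6 kinase downstream of TOR, at 299.6 and 219. RPL4D (AT5G02870) and RPL4A (AT3G09630) stood at 253 and 215, RPL23aA (AT2G39460) and RPL23aB (AT3G55280) at 128 and 95.8, and RPS28B (AT5G03850) at 64.2. The lowest of them was RPL10B (AT1G26910) at 11.7 FPKM, 2.35% of its family. In seedlings 14 of these 20 genes had their lowest value in the same library, vrn2-5prt6-1 replicate 1.

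The first comparisons asked what loss of VRN2, of PRT6 or of both does in seedlings. The members took a mean of 3.29% ± 0.255 of all Col-0 reads, 3.34% ± 0.105 for vrn2-5, 3.18% ± 0.319 for prt6-1 and 3.32% ± 0.324 for vrn2-5prt6-1 (SD, n = 3 each). The 3 libraries of each genotype held 3.05, 3.56 and 3.27% (Col-0), 3.46, 3.29 and 3.28% (vrn2-5), 3.21, 2.85 and 3.49% (prt6-1), and 2.95, 3.5 and 3.52% (double mutant). The groups overlapped, and the differences between their means were smaller than the spread between libraries of prt6-1 and of the double mutant. No member passed an adjusted p of 0.05 in any of the 5 pairwise comparisons or in the interaction of vrn2-5 with prt6-1 (limma on log2 of normalized reads plus 5, adjusted over 16820 genes, 208 members tested). Over all genes tested, 0.0238% were called for vrn2-5 against Col-0, 0.184% for prt6-1, 0.208% for the double mutant, 0% for the double mutant against prt6-1, 0.208% against vrn2-5 and 0.00595% for the interaction. At an unadjusted p under 0.05, limma gave 0, 3, 1, 1, 3 and 2 members in the same order, and the count tests of edgeR and DESeq2 on recovered whole reads also called 0 members in each.

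**Figure D3:**
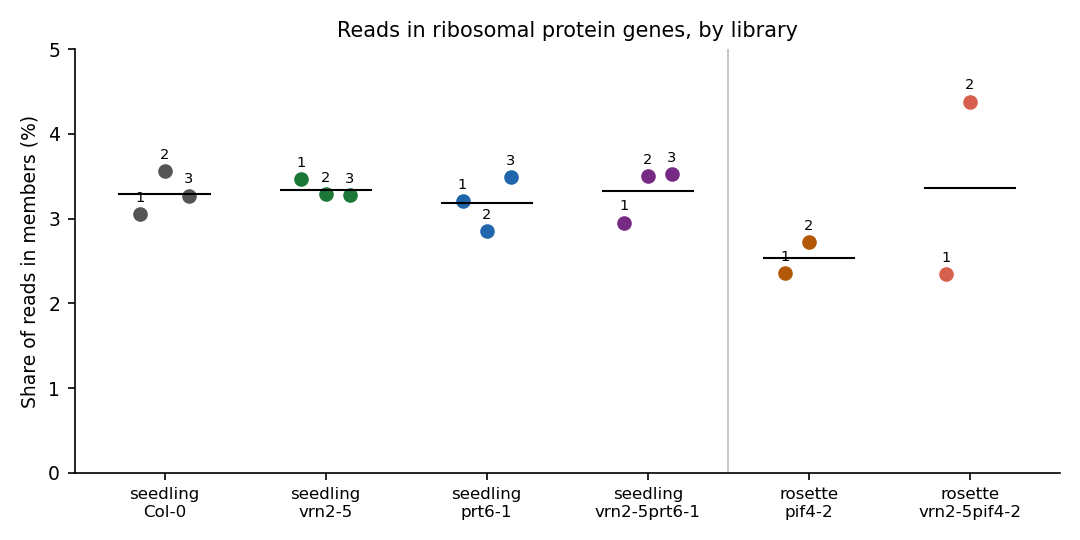
Percent of all reads that fell in the 216 members, for each of the 16 mRNA libraries (points, numbered by replicate) with the group means (lines). Seedling libraries lie between 2.85 and 3.56%, and vrn2-5pif4-2 replicate 2 at 4.38% is the highest of all.

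In prt6-1 most members were slightly below Col-0. Of 208 tested, 37 had a positive log2 difference, with a median of -0.13 against 0.01 over all genes tested, and the large and small subunits had medians of -0.14 and -0.10. The 3 of smallest p were L35-2 (AT2G39390), an L18a-like protein (AT3G14595) and L32-1 (AT4G18100). L35-2, a protein at the tunnel exit, stood at 405, 421 and 402 normalized reads in Col-0 and at 320, 291 and 336 in prt6-1, a log2 difference of -0.37 (SE 0.109, limma adjusted p = 0.898). All 3 prt6-1 values of L35-2 lay below all 3 of Col-0; those of vrn2-5 (386, 380 and 385) lay between, and those of the double mutant (354, 413 and 367) overlapped Col-0. AT3G14595 differed by -0.41 (SE 0.139) and L32-1 by -0.32 (SE 0.123), with limma adjusted p-values of 1 each. The 3 prt6-1 libraries of L32-1, at 1381, 1173 and 1325 normalized reads, also lay below those of Col-0 (1593, 1728 and 1515). Altogether 14 members had every prt6-1 value below every Col-0 value (4.65% of all genes did) and 1 had every value above (4.9%), the copy AT1G29965 of L18a-1. Without prt6-1 replicate 2 the median was -0.05, and it was -0.07 within the deep and -0.11 within the shallow libraries.

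In vrn2-5 the members lay near Col-0. The median log2 difference was 0.02, against 0.00 over all genes tested, with 120 of 208 members positive. Members whose 3 vrn2-5 values all lay above Col-0 numbered 13 (2.74% of all genes), and 1, L35-2, had all values below (2.76%). The 3 of smallest p were L7-1 (AT1G80750) at 0.37 (SE 0.171), S28-1 (AT3G10090) at 0.39 (SE 0.190) and P0-1 (AT2G40010) at 0.51 (SE 0.258), with limma adjusted p-values of 1 each. P0-1, the low copy of the stalk base, stood at 67.5, 60.2 and 56.3 normalized reads in Col-0 and at 84.4, 115 and 73.7 in vrn2-5, groups that did not overlap. S28-1 stood at 105, 145 and 154 against 170, 170 and 188, also apart. The median turned to -0.02 without Col-0 replicate 3 and to -0.01 without vrn2-5 replicate 1, the only deep libraries of those groups, and it was 0.16 between the 2 deep libraries and -0.05 among the 4 shallow ones.

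In the double mutant the members stood at a median of -0.07 against Col-0 (57 of 208 positive), 0.04 against prt6-1 (138 positive) and -0.10 against vrn2-5 (49 positive); these comparisons share libraries with those above. Within the deep and the shallow libraries these medians were -0.06 and -0.03, 0.02 and 0.08, and -0.21 and 0.03. The largest single difference against Col-0 was that of L27-1 (AT2G32220), a low copy at 22.8, 36.7 and 32.5 normalized reads against 11.2, 7.08 and 24.2, which was 0.97 (SE 0.368, limma adjusted p = 0.843) with overlapping groups. S14-1 (AT2G36160), at 764, 903 and 1062 normalized reads against 1155, 1151 and 1034, differed by -0.30 (SE 0.153), and L7-1 by 0.35 (SE 0.171). Groups did not overlap against Col-0 for 3 members above (5.23% of all genes), S24-1 (AT3G04920), L22-3 (AT5G27770) and S9-2 (AT5G39850), and for 3 below (4.06%), P0-3 (AT3G11250), AT3G14595 and S21-2 (AT5G27700). Against vrn2-5 the smallest p belonged to S9-2, a minor copy of a protein at the mRNA entry, at 82.9, 87.1 and 90.1 normalized reads against a narrow 48.5 to 50.3 in the 3 vrn2-5 libraries. That difference was 0.75 (SE 0.234, limma adjusted p = 0.550), and the groups lay far apart. Col-0 (71.2, 49.6 and 74.8) reached from the vrn2-5 values upward but stayed below those of the double mutant. Only prt6-1 (49.6, 67.6 and 91.4) spread over both. L34-2 (AT1G69620) at -0.36 (SE 0.132) and S15a-4 (AT3G46040) at -0.37 (SE 0.157) were the next. Groups did not overlap there for 2 members above (5.96%), S9-2 and L27-1, and 9 below (5.02%).

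Against prt6-1, L35-2 was 0.26 higher (SE 0.109), L31-2 (AT4G26230) 0.30 higher (SE 0.149) and S28-1 0.37 higher (SE 0.190), with limma adjusted p-values of 1 each. Groups did not overlap for 3 members above (3.56% of all genes), S15a-2 (AT2G19720), L35-2 and AT3G14595, and for 0 below (2.5%). The interaction, which asks whether vrn2-5 changes a member differently with and without prt6-1, had a median of 0.03 (115 of 208 positive), which was -0.06 (71 positive) without prt6-1 replicate 2 and 0.15 (173 positive) without vrn2-5prt6-1 replicate 1. Its smallest p belonged to L35-3 (AT3G55170) at 4.64 (SE 1.67, limma adjusted p = 1.00), with normalized reads of 75.0, 88.5 and 16.5 (Col-0), 0, 0 and 46.9 (vrn2-5), 64.8, 0 and 0 (prt6-1) and 33.2, 128 and 37.6 (double mutant). In 4 libraries L35-3 is listed at 0, and its values scatter widely within every group. L35-2 (0.35, SE 0.153) and S9-2 (0.68, SE 0.330) followed.

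Differences between single libraries were larger than those between genotypes, and the members moved together in them. In 44 of the 76 families the lowest of the 12 seedling values was that of vrn2-5prt6-1 replicate 1 and in 24 that of prt6-1 replicate 2. The cytosolic members stood at a median of -0.31 and -0.28 relative to the Col-0 mean in these 2 libraries, where 23 and 6 of 196 members lay above that mean, against -0.08 to 0.09 in the other 10. Without vrn2-5prt6-1 replicate 1 the median of the double mutant turned to 0.04 against Col-0 and to 0.02 against vrn2-5, and was 0.17 in place of 0.04 against prt6-1. Both libraries are deep; the other 4 deep ones had medians of -0.08 (Col-0 replicate 3), 0.09 (vrn2-5 replicate 1), -0.01 (prt6-1 replicate 3) and 0.06 (vrn2-5prt6-1 replicate 3). In the same 2 libraries, senescence and starvation markers had medians of -0.71 and -0.59 (-0.60 to 0.65 in the other 10), root markers of 0.56 and 0.28 (-0.52 to 0.42), each over 5 markers tested, proliferation markers of -0.33, the lowest of the 12, and 0.11, and green leaf markers took 4.86 and 5.85% of reads, within a range of 4.86 to 8.58% over seedlings. Root markers summed to 0.246 to 0.567% of reads and senescence markers to 0.222 to 0.740% over the 12 libraries, with at most 1 marker of each list at 0 in a library; their part in the result was not tested.

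**Figure D4:**
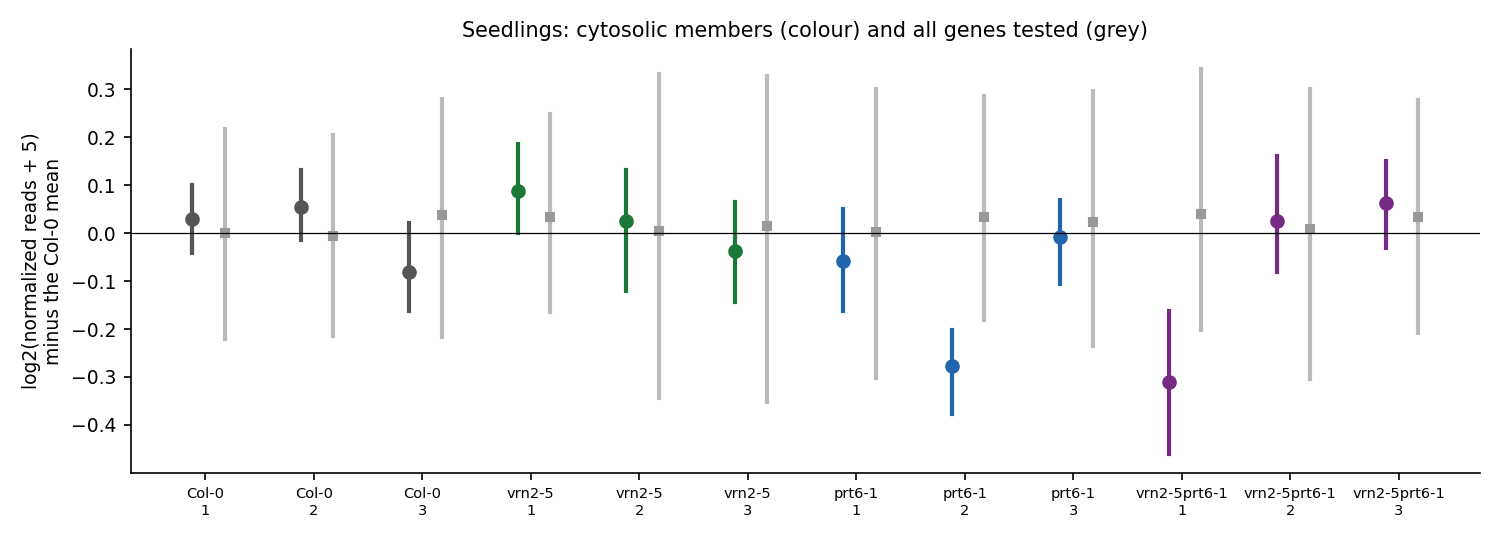
Difference of log2(normalized reads + 5) from the Col-0 mean in each of the 12 seedling libraries, as median (symbols) and quartiles (lines) of 196 cytosolic members in colour and of all 16820 genes tested in grey. The members' medians lie near 0 except in prt6-1 replicate 2 (-0.28) and vrn2-5prt6-1 replicate 1 (-0.31), where the medians of all genes are 0.03 and 0.04.

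Most members rose and fell together over the seedling libraries, and no value was taken by subunit. Over the 12 libraries the correlation of a member with the members' own mean had a median of 0.72. It exceeded 0.5 for 152 of 196 members (77.6%), against 3.67% of 16612 other genes. The libraries share depth and scaling with the mean, so this is a description. It was not repeated without the 2 libraries in which the members stood lowest. Within genotypes the SD of a member had a median of 0.198 on the log2 scale. It was 0.271 for 9670 other genes whose mean lay within the wide range of level that most members span. Level was not matched within that range, and its part in this difference was not tested. The 5 other genes whose pattern over the 12 libraries was most like the members' mean were the histone deacetylase gene HD2B (AT5G22650, Pearson 0.928), AT5G47700 (0.923), AT2G27720 (0.899), AT2G27710 (0.890) and AT4G17520 (0.870). The second to the fourth encode the stalk proteins P1 and P2, which the wording of the rule had left out.

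In rosettes the comparison of vrn2-5pif4-2 with pif4-2 asked what loss of VRN2 adds where PIF4 is mutated. The members took 2.36 and 2.72% of the pif4-2 reads and 2.34 and 4.38% of the vrn2-5pif4-2 reads, so replicate 2 of the double mutant stood above the other 3, which lay close together. Of 212 members tested (4 did not pass the filter on low counts), 200 had a positive log2 difference, with a median of 0.51 against -0.01 over all genes, and the large and small subunits had medians of 0.52 and 0.51. No member passed an adjusted p of 0.05 in edgeR's quasi-likelihood test, in which 0% of all genes did; 3 members had an unadjusted p under 0.05, and DESeq2 called 0 members. In the authors' deposited table, 203 of the 216 members had a positive log2 fold change, with a median of 0.52, and 0 had an adjusted p under 0.05, the lowest being 0.987.

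The positive median rested on that library. In vrn2-5pif4-2 replicate 2, 196 of the 212 members were at their highest (36.4% of all genes were), as were all 76 families, while 144 were at their lowest in replicate 1 of the same genotype (24.4% of all genes). L17-2, at the exit tunnel, stood at 251, 266, 241 and 855 FPKM in pif4-2 replicates 1 and 2 and vrn2-5pif4-2 replicates 1 and 2, and S8-1 at 390, 507, 316 and 641. Between the replicates of the double mutant the family totals differed by a median of 2.42-fold, from 1.44 in L3 to 3.57 in L17, and between those of pif4-2 by 1.19-fold (0.926 to 1.58). Without replicate 2 of the double mutant the median turned to -0.24, with 35 of 213 members positive, 2 called higher (4.85% of all genes) and 14 lower (4.64%). Without replicate 1 it was 0.98, with 185 of 214 called higher (24.7%) and 4 lower (35.2%). With either left out the genotype has 1 library, which edgeR assumes to vary like the other group, so these calls compare that library with pif4-2. Named after their values were seen, the 2 called higher were L7-1 and S2-4 (AT3G57490), and the 4 called lower were S2-4, AT2G07715, AT2G28815 and AT5G02440. S2-4 was thus called in opposite directions by the 2 replicates (0.62 and -0.64).

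**Figure D5:**
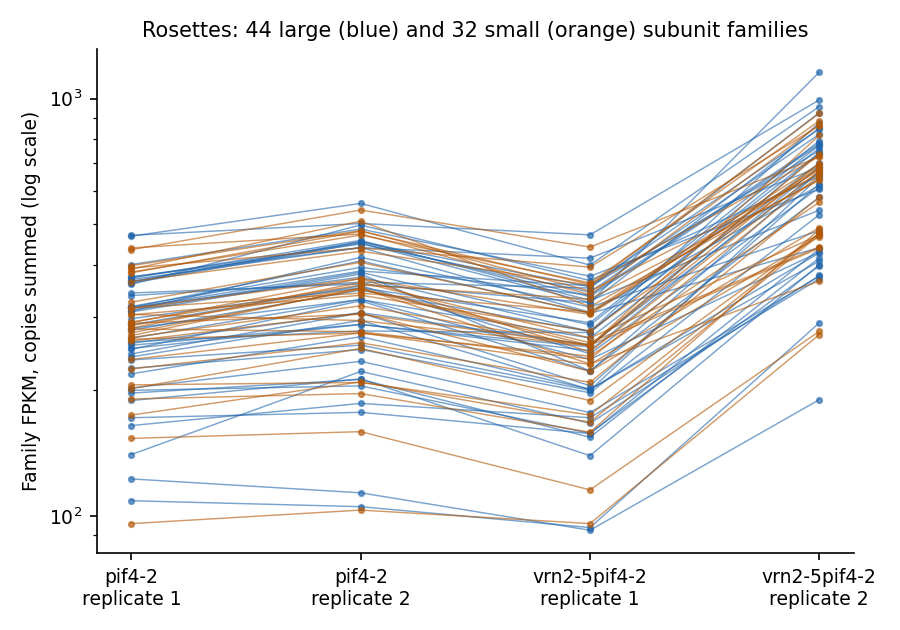
FPKM summed over the copies of each of the 76 families (log scale) in the 4 rosette libraries, with large-subunit families in blue and small-subunit families in orange. Every family is highest in vrn2-5pif4-2 replicate 2, by a median of 2.42-fold over replicate 1 of that genotype.

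Replicate 2 of the double mutant also stood apart outside the members. It listed 20.9% of genes at 0, against 3.18 to 11.4% in the other 3 libraries, and its 50 most abundant genes took 31.2% of reads against 22.2 to 26.4%. Shorter transcripts stood higher in it: the Spearman correlation of transcript length with the log2 deviation of this library from the mean of the other 3 was -0.46 over 18561 genes and -0.27 over 200 cytosolic members, and the members are short, with a median length of 976.5 bases against 1712 over all genes. The deviation had a median of 1.11 over cytosolic members and -0.10 over all genes, and 116 members against 8.75% of all genes exceeded 2 times the mean of the others. Green leaf markers took 8.48% of its reads against 6.20 to 7.48%, root markers 0.00942% within 0.00862 to 0.0188% (NRT2.1, PHT1;1 and COBL9 at 0), senescence markers 0.00759% against 0.0174 to 0.0269%, and proliferation markers 0.0208% against 0.0180 to 0.0199%. Their part in the result was not tested.

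The 3 members of unadjusted p under 0.05, named after their values were seen, were minor copies with higher values in both libraries of the double mutant. L7-1 stood at 21.0 and 18.9 FPKM for pif4-2 against 33.9 and 51.5 for vrn2-5pif4-2, a log2 difference of 1.08 (SE 0.305, edgeR adjusted p = 0.945) that stayed between 0.76 and 1.33 when a library was left out. S25-3 (AT4G34555) stood at 19.5 and 19.3 against 29.3 and 75.4 FPKM, a difference of 1.42 (SE 0.492, edgeR adjusted p = 0.945), and S16-2 (AT3G04230) at 7.46 and 5.96 against 10.3 and 19.9, a difference of 1.15 (SE 0.421, edgeR adjusted p = 0.945). In all 3 the groups did not overlap, and the replicates of the double mutant differed more than the groups' nearest values. Over all members tested the groups did not overlap for 13 above (15.7% of all genes) and 1 below (20.6%), AT3G14595.

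Copies of 1 protein did not all follow the family. In S16, a protein that reaches toward the tRNA in the small subunit, the leading copy S16-3 (AT5G18380, 250 FPKM) differed by -0.25 and the minor S16-2 by 1.15. The next widest ranges were 0.07 to 1.10 in L18a, 0.47 to 1.36 in S27, 0.37 to 1.21 in S28 and -0.05 to 0.76 in S27a, whose 2 copies make the protein as a fusion with ubiquitin. In S27 and S16 the most positive copy was the lowest in level, S27-1 (AT2G45710, 17.2 FPKM) and S16-2, and in S28 it was the highest, S28-2 (71.3 FPKM). None of these copies passed the adjusted test in edgeR. These differences include vrn2-5pif4-2 replicate 2, on which the members' positive median rested. Without that library S16-2 differed by 0.61, and the other copies are not given without it.

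Genes that make or use ribosomes were set beside the members. In rosettes, 22 of 31 ribosome assembly genes were positive with a median of 0.16, 19 of 35 translation factors with a median of 0.03, and 4 of 10 TOR and SnRK1 signalling genes with a median of -0.10, while the chloroplast and mitochondrial ribosomal proteins named 50S or 30S were positive for 74 of 91 with a median of 0.31. In replicate 2 of the double mutant, in which the members took 4.38%, the summed shares of assembly genes (0.148% of reads) and translation factors (0.968%) lay within those of the other 3 libraries, but their medians against the pif4-2 mean, 0.26 and 0.23, were the highest of the 4. The organelle ribosomal proteins took 1.79% of its reads against 1.29 to 1.40%, and the TOR and SnRK1 genes 0.0336% against 0.0519 to 0.0613%. In seedlings, assembly genes had medians of 0.07 in prt6-1 and 0.14 in the double mutant against Col-0. The members had -0.13 and -0.07 there, opposite in sign. Without prt6-1 replicate 2 the members' median in prt6-1 was -0.05. Without vrn2-5prt6-1 replicate 1 it was 0.04 in the double mutant, so the contrast there rested on that library. Medians of the assembly genes were not taken without these libraries. No gene of these 4 lists was called in any comparison by edgeR in rosettes or limma in seedlings, nor by DESeq2; at an unadjusted p under 0.05 there was 1 in rosettes, an assembly gene, and in seedlings at most 2 in any list and comparison. Among markers in rosettes, 5 of 12 for proliferating cells, 2 of 7 for green leaf, 2 of 2 for root and 3 of 6 for senescence were positive, with medians of -0.06, -0.05, 0.52 and 0.12. None was called by edgeR there or by limma in seedlings; DESeq2 called 1 root marker in the double mutant against Col-0 and 1 against vrn2-5. Of the 7 members of the mitochondrial ribosome, 5 were tested in rosettes, 4 positive, with a median of 0.47, and 3 of the 7 were listed at 0 in replicate 2 of the double mutant.

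Chromatin data asked which members VRN2 or its mark touch. A VRN2-YFP peak called in at least 2 of the 3 replicates overlapped the gene body or 1 kb upstream of 2 of 216 members (0.926%), against 868 of 21713 nuclear genes, a description without a test. They were L3-1 on chromosome 1 and S13-1 (AT3G60770) on chromosome 3, in TAIR10 coordinates. The peaks of L3-1 lay at chr1:16265463-16265720 in replicate 1 and chr1:16265225-16265650 in replicate 3, upstream of the gene at chr1:16266553-16268945 on the plus strand, with the peak caller's fold of 2.04 and 1.94 and -log10 q-values of 6.09 and 4.66. Those of S13-1 lay at chr3:22462547-22463211 in replicate 1 and chr3:22462614-22463117 in replicate 2, upstream of the gene at chr3:22460189-22461779 on the minus strand, with folds of 2.22 and 1.94 and -log10 q-values of 8.35 and 4.88. No peak called in at least 2 replicates reached a gene body of a member, and 0 members had a peak in all 3 lists. Gene bodies were not counted in the single lists. Upstream of S13-1 an H3K27me3 region was also listed in all 3 tables. Neither gene passed the test for vrn2-5 against Col-0: L3-1 stood at 3663, 3774 and 3227 normalized reads in Col-0 and 3449, 3033 and 3670 in vrn2-5 (-0.07), with overlapping groups, and S13-1 at 1005, 1052 and 951 against 1144, 1094 and 1083 (0.14), with groups that did not overlap and a limma adjusted p of 1.

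H3K27me3 regions were joined over replicates and kept if found in at least 2 of 3 tables. They overlapped the body or 1 kb upstream of 54 members (25%, against 32.4% of nuclear genes). Within the gene body alone there were 18 members (8.33%, against 23.6%), so most overlaps lay upstream. A member was not always reached in 2 replicates. Several were reached in a single replicate, among them L8-1 (AT2G18020), S5-1 (AT2G37270), L38 (AT3G59540), S10-1 (AT4G25740) and S24-2 (AT5G28060). The same held for the gene bodies of L35-1 (AT3G09500), S16-2 (AT3G04230), S15-4 (AT5G09510), L10a-3 (AT5G22440) and S27-3 (AT5G47930). The 54 and the 18 members are thus not all reproducible as single genes. The separate lists of replicates 1, 2 and 3 reached 43, 41 and 52 members (27.2, 29.1 and 32.1% of nuclear genes). In 3 members the region of a replicate covered over 90% of the gene body. Members with and without such a region in seedling chromatin stood at like levels in rosettes, with medians of 122 and 117 FPKM for 54 and 162 genes. Most of the 54 were reached only upstream, and the 18 with a region in the body were not compared on their own. Joined regions were also measured in bases of the body and the 1 kb upstream together. The largest overlaps were those of L30-2 (AT1G77940, 2548 bases), L19-1 (1934), L27-2 (AT3G22230, 1397), S23-1 (AT3G09680, 1355) and L35-3 (AT3G55170, 1330). Their levels in rosettes ran from 1.07 FPKM for S23-1 to 455 for L19-1. A region reached the body in 1 of 3 replicates at L30-2, L19-1 and L27-2, in 2 at L35-3 and in all 3 at S23-1. The regions at L35-3 held no other gene, whereas those at L30-2, L19-1, L27-2 and S23-1 also spanned a neighbouring gene in at least 1 replicate. In the authors' deposited tables, which compare libraries called A and B without naming them in the header, the ratio A over B in the 131 region rows at members ran from 0.470 to 1.18 with a median of 0.931; 9 passed a false discovery rate of 0.05 for A over B and 62 for B over A. No direction between Col-0 and vrn2-5 was drawn from these ratios.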

How the data were processed

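The submitters' processing notes name the TAIR10 build, Bowtie and DESeq2 at the RNA samples, and BWA, MACS2, MACS3 and SICER at chromatin samples, without versions or settings. For rosettes the authors deposited raw counts, FPKM, log2 fold changes and p-values per gene; its coordinates and transcript lengths, of a kind other than measurements, were used as deposited. For seedlings the authors deposited a signal per gene, reads over a size factor of each library, from which 100% of values came back as whole reads (tolerance 0.01). A read was worth 0.205 to 5.00 normalized reads. Its columns WT and DM were read as Col-0 and vrn2-5prt6-1. Peak files deposited by the authors hold a fold ratio and a -log10 q-value per peak, called per replicate. H3K27me3 tables hold a ratio and adjusted p-values for libraries A and B, per the file headers.

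Rosette counts were tested with edgeR 4.0.16 (quasi-likelihood, TMM, filterByExpr, 18561 of 21884 genes). Since the seedling unit was normalized, limma 3.58.1 with a trend was used on log2(value + 5) (16820 of 18480 genes, those whose mean reached 10), with the 12 libraries in 1 model of genotype; this scale understates changes of low genes. P-values were adjusted by Benjamini-Hochberg over all genes tested. DESeq2 1.42.0 and edgeR on recovered reads were alternatives (R 4.3.3). Both fits were tested on simulated data. Of 216 members, 210 were in the seedling table (absent: AT1G15250, AT1G58684, AT1G59359, AT2G28815, AT3G09680 and AT3G44010) and 208 were tested, AT2G07725 and AT5G59240 having a mean under 10. A seedling level per kb used the transcript lengths of the rosette table. All members have a symbol in RefSeq assembly TAIR10.1.

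Named members were the 3 of smallest p per seedling comparison, the 10 highest and 5 lowest in level, 20 with known developmental roles, the 5 families with the widest ranges and those overlapping a peak or, by size, a region; for rosettes the rule named called members, none passed, and the 3 of smallest p, like members behind counts of 5 or fewer, were named after their values were seen. The members, the gene lists and these rules were chosen with earlier results of these data known. Alternatives tried were another pseudocount, no filter, other scalings, only the groups compared, replicate terms and each library left out.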

Additional observations from a re-analysis of the deposited data

How the results depend on the processing

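Over 44 results and 541 alternative settings, 521 stayed on their side of the threshold or, for values without a test, within the spread between replicates. For the member medians that spread includes the libraries that stood apart, so it is a wide allowance. In seedlings it exceeded every main median, and in rosettes it took in the median of 0.98. Of the 521, 12 were seedling medians near 0 that turned sign with 1 library left out. In the others, 4 gave a single member a call, where a rosette library of the double mutant was left out (L7-1 in both cases, S25-3 and S16-2 without replicate 1), 16 values moved and 0 reversed a call. Where 1 library was left out, members called in rosettes ranged from 0 to 189 (16 without vrn2-5pif4-2 replicate 2) and the rosette median from -0.24 to 0.98. Seedling calls stayed at 0, and their medians ranged from -0.02 to 0.06 in vrn2-5, -0.17 to -0.05 in prt6-1, -0.14 to 0.04 in the double mutant against Col-0, -0.05 to 0.17 against prt6-1, -0.17 to 0.02 against vrn2-5 and -0.06 to 0.15 for the interaction; the sign turned in 2 of 6, 0 of 6, 1 of 6, 3 of 6, 1 of 6 and 5 of 12 of these. The median share of reads over 16 libraries was 3.27%, and 4.31% where the 50 most abundant genes were left out of the total. Members with a VRN2-YFP peak were 0 in all 3 lists and, for peaks in at least 2 lists, 0 in gene bodies. They were 4, 4 and 7 in the lists of replicates 1, 2 and 3. H3K27me3 regions in gene bodies alone gave 18. Same-numbered seedling libraries correlated from -0.22 to 0.56, with 11 of 18 pairs over 0.1, so the numbers were not taken to pair all samples, but the 6 pairs of replicate 3 all lay between 0.29 and 0.56; rosettes correlated at 0.06. With replicate 3 as a term 0 members were called, the medians were the same, and over all genes 40 higher and 17 lower were called for the double mutant and 43 and 11 for it against vrn2-5. With the replicate block the rosette median was 0.38 with 0 members called, and seedlings kept 0 calls and the same medians. A term for depth class, chosen after seeing the data, gave medians of -0.10 in prt6-1 and -0.05 in the double mutant. Over all genes, DESeq2 called 5 higher and 2 lower in rosettes (edgeR 0) and, in seedlings, 6 and 5 for vrn2-5 (limma 2 and 2), 47 and 8 for prt6-1 (28 and 3), 52 and 16 for the double mutant (31 and 4), 54 and 9 for it against vrn2-5 (33 and 2) and 3 and 3 for the interaction (1 and 0); edgeR on recovered reads called 2 and 2, 30 and 2, 33 and 4, 29 and 2, and 0. Depth limits low copies: a read was worth up to 5.00 normalized reads in the shallowest seedling library.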
